A study of Mus musculus with 9 samples.

Results

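The CXCR2 ligands and the G-CSF axis are 9 mouse genes that were taken by symbol from the table of 27719 genes, and all 9 were found. They are the neutrophil-attracting ligands Cxcl1, Cxcl2, Cxcl3 and Cxcl5, the platelet CXC chemokines Ppbp and Pf4, the ligand receptor Cxcr2, the growth factor Csf3 (which encodes G-CSF) and its receptor Csf3r. Colon RNA was measured in 3 groups of C57BL/6J mice with 3 mice per group, 1 library per mouse, and the age of the mice is not given in the sources used here. The control group drank distilled water. The DSS group drank 2.5% dextran sodium sulfate (DSS), which injures the colon epithelium, for 7 days. The DSS + EA group drank DSS in the same way and received electroacupuncture (EA), a weak current passed through needles, at the ST36 point of both legs at 2 Hz and 0.2 mA, 30 minutes daily on 5 days, starting after 5 days of modelling. Control and DSS mice were held for the same time without needles, so holding was shared by all groups and needling alone was not separated from the current.

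CXC chemokines are small secreted proteins that steer leukocytes along a gradient. Those with a Glu-Leu-Arg motif before the first cysteines act on CXCR2, a G protein-coupled receptor carried mainly by neutrophils, and draw these cells out of the blood into injured mucosa. G-CSF acts at a distance on the bone marrow, where it drives neutrophil production and release through the receptor encoded by Csf3r. Epithelial cells, fibroblasts, endothelial cells and macrophages make Cxcl1, Cxcl2, Cxcl5 and Csf3 when IL-17, IL-1 or TNF reaches them, whereas Ppbp and Pf4 are stored in platelet granules and PF4 lacks the Glu-Leu-Arg motif.

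Full-length cDNA was amplified by PCR and read on an Oxford Nanopore instrument, and the authors deposited the number of reads per gene. Library totals lay between 2627695 and 4235576 counts. Levels are given as counts and as CPM, that is counts scaled to a common library size with the TMM method of edgeR. A floor of 3 counts per library corresponded to between 0.652 and 1.15 CPM, and intervals and floors cover counting error only because PCR copies cannot be told from separate molecules. The tissue label was met by its markers, since 13 of 13 colon epithelium genes had reads and their summed level was between 16400 and 33200 CPM in the control group. A pair of features of the libraries stood beside the results below. Summed levels of 13 pancreatic acinar markers reached 47100 and 20600 CPM in DSS + EA mice 2 and 3, compared with 696 CPM in DSS + EA mouse 1 and between 43.1 and 963 CPM in the 6 other mice. The 20 neutrophil markers summed to 4830 CPM in DSS mouse 1, compared with 26000 and 29600 CPM in DSS mice 2 and 3.

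The 6 chemokines lie in one cluster on chromosome 5 (GRCm38). From Cxcl5 at chr5:90759360-90761624 to Cxcl2 at chr5:90903871-90905938 the cluster spans 147 kb, and GENCODE M21 places 11 genes in it, 7 of them protein-coding. The seventh, Cxcl15, had 0 counts in every mouse, which allows up to 3 counts per library. Ppbp (chr5:90768518-90770063), Pf4 (chr5:90772435-90773383) and Cxcl3 (chr5:90786103-90789600) follow Cxcl5, and Cxcl1 (chr5:90891241-90893115) stands next to Cxcl2 at the far end. Mthfd2l, the next protein-coding gene beyond Cxcl2, had between 0 and 12 counts. Cxcr2 is on chromosome 1 (chr1:74153989-74161246), Csf3 on chromosome 11 (chr11:98701263-98703629) and Csf3r on chromosome 4 (chr4:126024550-126044440). All 9 genes are on the plus strand.

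Promoters of 5 cluster genes are shown because Cxcl1, Cxcl2 and Cxcl3 share a run of bases that Ppbp and Pf4 do not have there. Each line gives 100 bases from RefSeq (GRCm38.p6, plus strand, 5′ to 3′), from 121 to 22 bases before the transcription start, or from 129 to 30 bases before it for Cxcl2, and capitals mark GGGAATTTCCC, the longest run of bases present in the windows of Cxcl1, Cxcl2 and Cxcl3. It reads as a form of the site that NF-kB, the transcription factor switched on by IL-1 and TNF, is known to bind.
Cxcl1, chr5:90891124-90891223: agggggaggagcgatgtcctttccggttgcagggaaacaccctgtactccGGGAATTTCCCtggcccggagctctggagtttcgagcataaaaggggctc
Cxcl2, chr5:90903770-90903869: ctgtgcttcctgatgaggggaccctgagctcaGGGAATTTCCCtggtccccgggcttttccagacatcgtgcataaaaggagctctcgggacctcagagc
Cxcl3, chr5:90785980-90786079: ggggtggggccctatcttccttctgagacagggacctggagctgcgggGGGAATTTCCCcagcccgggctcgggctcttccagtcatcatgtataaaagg
Ppbp, chr5:90768397-90768496: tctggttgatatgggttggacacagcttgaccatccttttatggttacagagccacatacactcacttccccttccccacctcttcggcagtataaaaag
Pf4, chr5:90772314-90772413: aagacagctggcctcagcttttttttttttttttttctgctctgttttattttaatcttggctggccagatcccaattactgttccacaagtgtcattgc

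The run was taken from, and searched on both strands in, the 250 bases before the start, and it occurred once each in Cxcl1, Cxcl2 and Cxcl3, beginning 71, 97 and 73 bases before the start. Starts here are those of RefSeq, and for Cxcl2 the RefSeq start lies inside the gene as GENCODE places it. Of 32851 promoter entries, 14 (0.0426%) held these letters. Ppbp, Pf4, Cxcr2 and Csf3r did not hold these letters in that window. Promoter entries were matched for 7 of the 9 genes, all but Cxcl5 and Csf3. A match is a description of the letters and not of bound protein.

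**Figure D1:**
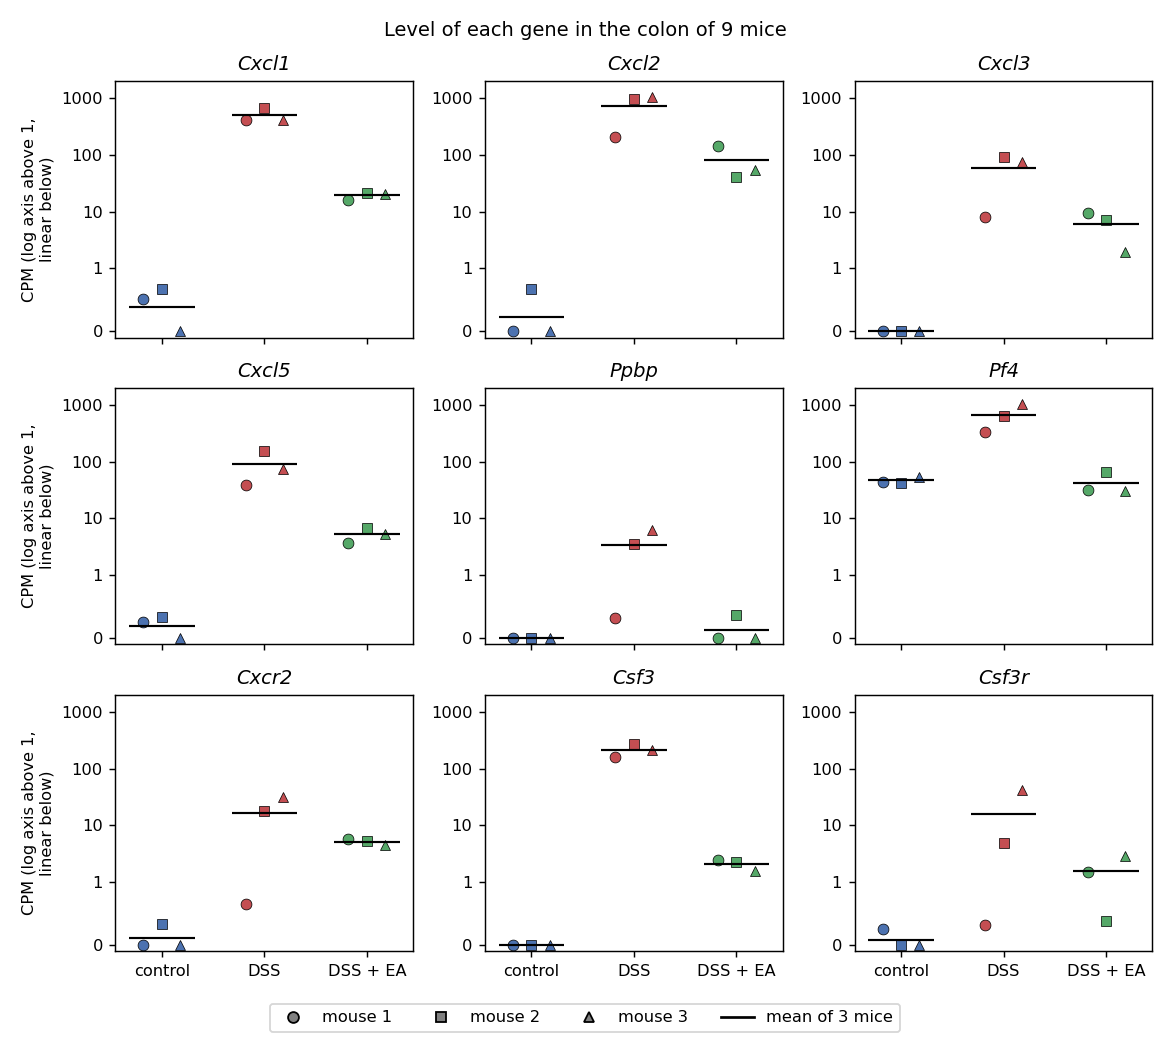
CPM of each of the 9 genes (vertical axis, log above 1 and linear below) by group (control, DSS, DSS + EA). Symbols are mice and lines are means of 3 mice. In 8 of 9 panels the control mice sit at or near 0, and Pf4 is the exception with 42.2 to 53.7 CPM.

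In control colon these genes were close to silent. With the exception of Pf4, each had 0 to 2 counts in every control mouse, which is under the floor. A filter on low counts was therefore passed only through the DSS and DSS + EA mice, so the number that passed (7 of 9, without Ppbp and Csf3r) is no evidence of a change. Pf4, with 176, 127 and 140 counts in the control mice, could be compared with a measured baseline.

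DSS against control asked how far injury raised the axis. All 9 genes had a higher CPM in every DSS mouse than in every control mouse (for Csf3r by scaling alone, since DSS mouse 1 and control mouse 1 had 1 count each), where 26.2% of the 12566 genes tested across the table stood apart in that direction. Ppbp and Csf3r were not among the genes tested. In DSS mouse 1 Ppbp with 1 count and Cxcr2 with 2 counts were also under the floor. All members but Pf4 were under the floor in every control mouse, so a lower level could not have been seen for them. Nothing is therefore read from the count of 9. The 7 genes that entered edgeR's quasi-likelihood test passed a Benjamini-Hochberg adjusted p of 0.05 over all genes, and all 7 were higher in the DSS group. Of all genes tested, 21.5% passed in that direction, and 40.9% in either direction. Only Pf4 could have passed the filter through its control counts, so the direction of the other 6 came with the filter and nothing is read from the count of 7. The smallest of the 7 fitted changes was 14.2-fold, for Pf4.

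Control mice had 2, 2 and 0 counts of Cxcl1, and DSS mice had 1255, 3111 and 1322. This is a neutrophil attractant made quickly by stromal and epithelial cells, and its DSS values lay within 1.67-fold of each other in CPM. Summed counts were 1240-fold higher in the DSS group (95% exact counting interval 486 to 4570), and the fitted log2 fold change was 10.1 (SE 0.488, adjusted p = 5.27e-06 in edgeR's quasi-likelihood test). Cxcl2, a paralogue with the same receptor, had 0, 2 and 0 counts in control mice and 638, 4519 and 3288 counts in DSS mice. Its DSS values spread over 5.0-fold, with mouse 1 the lowest. The log2 fold change was 11.5 (SE 1.14, adjusted p = 0.000103 in edgeR's quasi-likelihood test), and summed counts were 3700-fold higher (exact interval 1020 to 30500), or 2170-fold without control mouse 1.

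Cxcl3, the third paralogue of this end of the family, had 0 counts in the 3 control mice and 25, 420 and 242 counts in DSS mice. The DSS level was at least 60.1-fold above the floor of the control libraries. DSS mouse 1 was again the lowest, and its CPM of 8.04 compared with 91.3 and 75.5 CPM in the others. Cxcl5, which is known as an epithelial CXCR2 ligand, had 1, 1 and 0 counts in control mice and 119, 722 and 243 counts in DSS mice. Its log2 fold change was 8.52 (SE 0.769, adjusted p = 6.62e-05 in edgeR's quasi-likelihood test).

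The platelet pair split by level. Pf4, which encodes an abundant protein of platelet alpha granules, had 1022, 2996 and 3278 counts in DSS mice, all above the highest control count of 176. The log2 fold change was 3.83 (SE 0.45, adjusted p = 0.000236 in edgeR's quasi-likelihood test), from 46.9 ± 6.01 CPM to 668 ± 347 CPM (SD, n = 3). Ppbp, whose product is cut to the CXCR2 ligand NAP-2, had 0 counts in the control group and 1, 16 and 20 counts in the DSS group. It was not tested after the filter, and its DSS level was at least 3.45-fold above the floor.

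The receptors were the most uneven genes among DSS mice. Cxcr2 had 0, 1 and 0 counts in control mice and 2, 81 and 102 counts in DSS mice, a 49.5-fold spread in CPM within the DSS group. Csf3r had 1, 0 and 0 counts in control mice and 1, 22 and 135 counts in DSS mice, a 131-fold spread. In DSS mouse 1 both receptors were at or under the floor. The log2 fold change of Cxcr2 was 6.87 (SE 1.43, adjusted p = 0.00432 in edgeR's quasi-likelihood test), and Csf3r, left out by the filter, had summed counts 138-fold higher (exact interval 24.5 to 5500), or 28.5-fold higher without DSS mouse 3 (4.63 to 1170).

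Csf3 behaved like Cxcl1 and unlike its own receptor in its spread. Control mice had no reads of it, and DSS mice had 495, 1255 and 692 counts, which lay within 1.71-fold of each other in CPM. The DSS level was at least 223-fold above the floor.

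DSS mouse 1 thus had Cxcl1 and Csf3 levels near those of the other DSS mice but few receptor reads, and in CPM it was the lowest DSS mouse for every member. Its Cxcl1 level of 404 CPM compared with 676 and 413 CPM, and its Csf3 level of 159 CPM with 273 and 216 CPM. The summed level of the neutrophil markers, 4830 CPM in this mouse, was also the lowest of the DSS mice. Ly6g, a marker in that sum, went the other way, with 6734 counts in DSS mouse 1 and 5972 and 4506 in DSS mice 2 and 3. The part of neutrophils in the receptor levels was not tested. In bulk tissue fewer cells of a type and less RNA per cell cannot be told apart.

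DSS + EA against DSS asked what differed when EA was added to the injury. It used the same DSS mice as the comparison above, so a chance deviation in them would move both. CPM ranges of the DSS + EA group lay wholly below those of the DSS group for 5 of 9 genes (Cxcl1, Cxcl2, Cxcl5, Pf4 and Csf3), where 23.3% of all genes tested did so. In edgeR's quasi-likelihood test 6 of 7 genes passed the adjusted p, all 6 lower in the DSS + EA group. The background was 18.3% of all genes tested lower, 17.2% higher and 35.5% in either direction. Cxcr2 did not pass. Csf3 passed the filter through the DSS mice alone, and Cxcl3 could not have passed it without them. Their direction thus came in part with the filter, so nothing is read from the count of 6.

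Csf3 had the largest difference of the 7. Its counts were 8, 6 and 5 in the DSS + EA mice, against 495 or more in each DSS mouse. The fit gave a level 102-fold lower (log2 fold change -6.67, SE 0.333, adjusted p = 0.00011 in edgeR's quasi-likelihood test), from 216 ± 56.7 CPM to 2.09 ± 0.445 CPM (SD, n = 3). When each mouse was left out in turn the log2 fold change stayed between -6.82 and -6.48.

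Cxcl1 had 52, 57 and 65 counts in the DSS + EA mice, which differed by 1.35-fold in CPM among themselves. It was 25.8-fold lower than in the DSS group (log2 fold change -4.69, SE 0.342, adjusted p = 0.00011 in edgeR's quasi-likelihood test). Cxcl5 had 12, 18 and 17 counts and was 17.3-fold lower (log2 fold change -4.11, SE 0.524, adjusted p = 0.000688 in the same test). These ligands were thus low in all 3 DSS + EA mice.

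Cxcl2 was uneven in the DSS + EA group. Its counts were 480, 108 and 170, so that mouse 1 with 146 CPM came closest to the lowest DSS mouse with 205 CPM. The difference was 9.19-fold (log2 fold change -3.20, SE 0.685, adjusted p = 0.00665 in edgeR's quasi-likelihood test). Cxcl3 had 31, 19 and 6 counts, and at 9.44 CPM DSS + EA mouse 1 was above DSS mouse 1 at 8.04 CPM, so the groups overlapped. Its log2 fold change of -3.24 (SE 0.871, adjusted p = 0.0228 in edgeR's quasi-likelihood test) did not pass without DSS mouse 2 (adjusted p = 0.0712), DSS + EA mouse 2 (0.0627) or DSS + EA mouse 3 (0.0734).

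Pf4 had 106, 175 and 96 counts in the DSS + EA mice, 15.7-fold lower than in the DSS group (log2 fold change -3.97, SE 0.453, adjusted p = 0.000472 in edgeR's quasi-likelihood test). Ppbp was down to 0, 1 and 0 counts. Its summed counts were 30.9-fold lower (exact interval 5.21 to 1250), or between 19.8-fold and 20.2-fold without DSS + EA mouse 1, DSS + EA mouse 3 or DSS mouse 3, although DSS mouse 1 with 1 count overlapped the DSS + EA group.

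The receptors overlapped between the groups. Cxcr2 had 19, 14 and 14 counts in the DSS + EA mice, all above the 2 counts of DSS mouse 1 and below the 81 and 102 counts of the other DSS mice. Its log2 fold change was -1.69 (SE 0.836, adjusted p = 0.138 in edgeR's quasi-likelihood test), and without DSS mouse 1 it was -2.22 with an adjusted p of 0.0017. Csf3r had 5, 1 and 9 counts in the DSS + EA mice, with summed counts 8.80-fold lower than in the DSS group (exact interval 5.17 to 16.1). DSS mouse 3 gave most of the DSS counts, and without it the ratio was 1.81 (0.906 to 3.74), whereas without DSS + EA mouse 3 it was 14.4. Tested without the filter, Csf3r had an adjusted p of 0.0438 in edgeR's quasi-likelihood test and did not pass in DESeq2 (log2 fold change -3.30), and it passed in 1 of 7 edgeR fits that left out a mouse. DSS mouse 1, at 0.322 CPM of Csf3r, was below the DSS + EA range of 0.374 to 2.85 CPM.

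**Figure D2:**
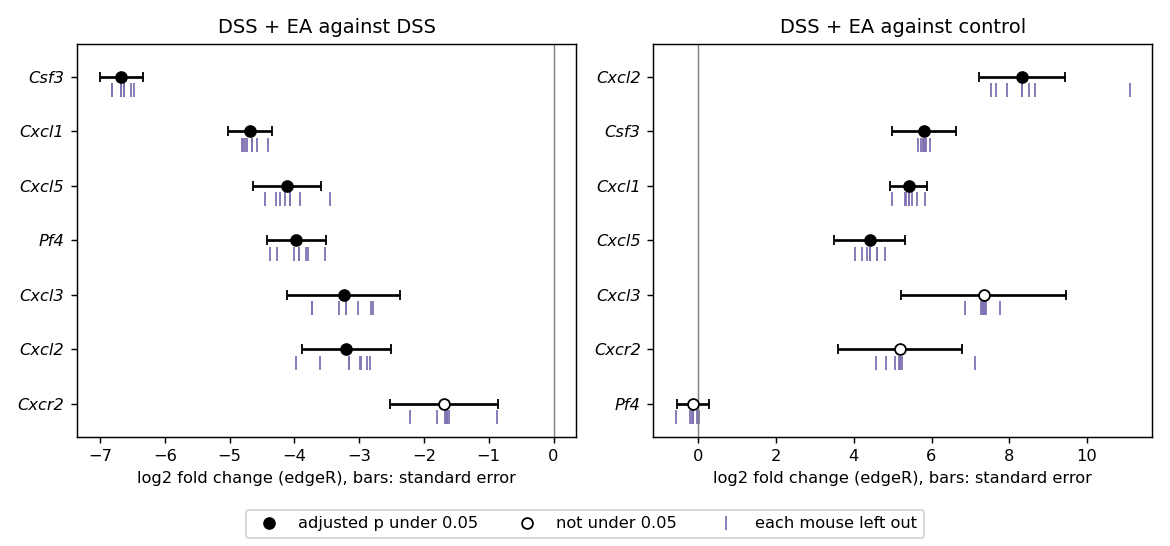
Log2 fold changes (points) with standard errors (bars) for the 7 genes tested, with the value after leaving out each mouse as ticks. Csf3 lies farthest below 0 at -6.67 against DSS, and against control Pf4 sits at -0.137 while the other genes lie above it.

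DSS + EA against control asked what remained above baseline. It shares the DSS + EA mice with the preceding comparison. CPM ranges of 7 of 9 genes lay wholly above those of the control group, all but Ppbp and Pf4, where 18.0% of all genes tested did so. In edgeR's quasi-likelihood test 4 of 7 genes passed the adjusted p (Cxcl1, Cxcl2, Cxcl5 and Csf3), all higher in the DSS + EA group, against 3.00% of all genes tested higher and 3.64% in either direction. All members but Pf4 were under the floor in every control mouse, so a lower level could not have been seen for them. Nothing is therefore read from the count of 4 or from that of 7.

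Among genes that passed, Cxcl2 had the largest fitted change, with a log2 fold change of 8.34 (SE 1.11, adjusted p = 0.0046 in edgeR's quasi-likelihood test), or 6.62 with a prior count of 2. Cxcl1 was at 5.41 (SE 0.484, adjusted p = 0.0012 in the same test). The call for Cxcl5 at 4.41 (SE 0.909, adjusted p = 0.028 in edgeR's quasi-likelihood test) was lost without any one of control mice 1, 2 or 3 or DSS + EA mice 2 or 3, with adjusted p of 0.0653 or more. Csf3 was at least 2.15-fold above the control floor and passed (adjusted p = 0.0104 in edgeR's quasi-likelihood test).

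Cxcl3 was at least 6.34-fold above the control floor and did not pass (adjusted p = 0.122 in edgeR's quasi-likelihood test), and without DSS mouse 1 in the fit it did (adjusted p = 0.0163). Cxcr2 likewise had an adjusted p of 0.124, or 0.00529 without DSS mouse 1, and its summed counts were 49.3-fold higher (exact interval 8.42 to 1990), or 29.0-fold without control mouse 1. Pf4 stood apart from the rest. At 42.7 ± 19.7 CPM in the DSS + EA group and 46.9 ± 6.01 CPM in the control group (SD, n = 3), its log2 fold change was -0.137 (SE 0.412, adjusted p = 0.905 in edgeR's quasi-likelihood test), and the groups overlapped.

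**Figure D3:**
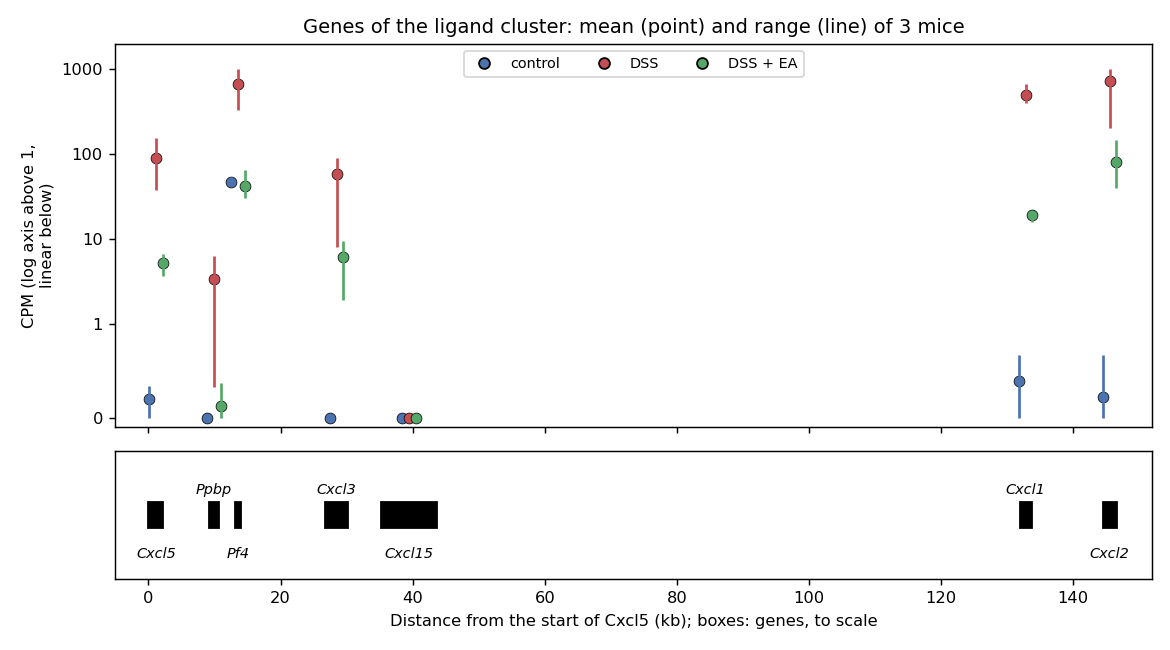
Position of the 7 protein-coding genes of the chromosome 5 cluster (lower panel, distance in kb from the start of Cxcl5) and their CPM (upper panel, log above 1 and linear below) as the mean and range of 3 mice per group. Cxcl15 lies at 0 between Cxcl3 and Cxcl1, and Pf4 is the only gene with control values well above 0.

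Position in the cluster did not order the levels. The abundant Pf4 and the rare Ppbp are neighbours, and Cxcl15, at 0, lies between Cxcl3 and Cxcl1.

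The mix of the 4 neutrophil-attracting ligands varied between mice of a group. Their summed level was 0 to 1.66 CPM in the control group, 655 to 1910 CPM in the DSS group and 75.4 to 175 CPM in the DSS + EA group. Cxcl1 held 61.6% of the summed counts in DSS mouse 1 (exact binomial 95% interval 59.5 to 63.7), 35.5% in mouse 2 (34.5 to 36.5) and 25.9% in mouse 3 (24.7 to 27.2). Its shares in the DSS + EA mice were 9.04% (6.83 to 11.7), 28.2% (22.1 to 35.0) and 25.2% (upper bound 31.0), and the last 2 intervals overlap that of DSS mouse 3. Cxcl2 was the leading ligand in 5 of the 6 mice, with 31.3%, 51.5% and 64.5% in the DSS mice and 83.5%, 53.5% and 65.9% in the DSS + EA mice. DSS mouse 1, led by Cxcl1, was the exception. Cxcl3 and Cxcl5 stayed under 10% each in all 6 mice. A full-length read stands for 1 amplified cDNA copy and needs no division by length. Whether all reads were full-length was not tested, so the shares were also divided by length. Per kilobase of transcript Cxcl1 held 66.1%, 39.8% and 29.2% in DSS mice and 10.4%, 31.9% and 28.6% in DSS + EA mice, which kept Cxcl1 first in DSS mouse 1 and Cxcl2 first in the others.

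**Figure D4:**
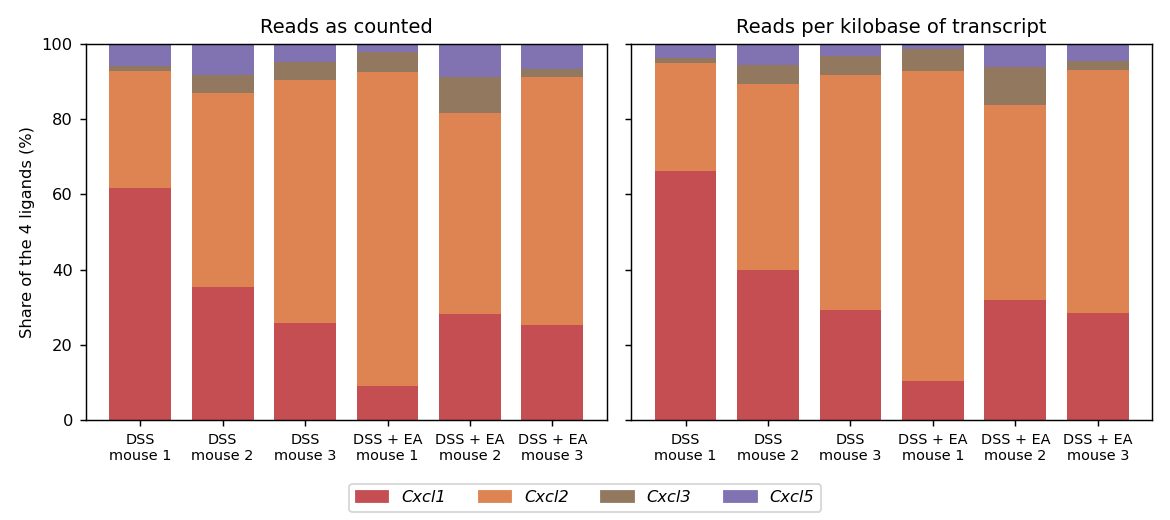
Share of Cxcl1, Cxcl2, Cxcl3 and Cxcl5 (percent, stacked bars from 0) in the summed reads of each DSS and DSS + EA mouse, as counted (left) and per kilobase of transcript (right). Cxcl1 is the leading ligand in DSS mouse 1, and Cxcl2 leads in the 5 other mice.

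How the counting tool divided reads between paralogues is not given in the sources used here. The best matching stretch of the Cxcl2 and Cxcl3 transcripts was 354 bases at 90.1% identity, that of Cxcl1 and Cxcl2 347 bases at 78.1%, and that of Cxcl1 and Cxcl3 330 bases at 76.1%. No match was found between Cxcl5 and the other ligands. Some reads of Cxcl3 may therefore be counted as Cxcl2 or the reverse, and the split between these paralogues is uncertain. The primers that the study designed for Cxcl3 show the likeness.
Cxcl3 forward primer: ccagacagaagtcatagccac
Cxcl3 reverse primer: cgttgggatggatcgcttttc
The forward primer lies over the junction of exons 2 and 3 of Cxcl3 (chr5:90786451-90786589, GRCm38) and had 0 mismatches to the Cxcl2 transcript as well. The reverse primer, in exon 4 (chr5:90787504-90787524), had 0 mismatches to Cxcl3 and 8 to the best place in Cxcl2.

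The ratio of Csf3 to Cxcl1 separated the DSS and DSS + EA groups, whereas that of Cxcl2 to Cxcl1 did not. Csf3 counts per 100 Cxcl1 counts were 39.4, 40.3 and 52.3 in the DSS mice and 15.4, 10.5 and 7.69 in the DSS + EA mice, without overlap. Cxcl2 counts per Cxcl1 count were 0.508, 1.45 and 2.49 in DSS mice and 9.23, 1.89 and 2.62 in DSS + EA mice, and these ranges overlapped.

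Cell type markers moved with the members. Of 20 neutrophil markers, 18 were tested, and in DSS against control 17 were higher in edgeR's quasi-likelihood test, with a median log2 fold change of 8.46 beside 0.0205 for all genes tested. The calgranulin gene S100a8 had 6, 6 and 1 counts in control mice, 5379, 72682 and 61439 in DSS mice and 2115, 1193 and 1176 in DSS + EA mice. With EA 15 were lower and 1 higher than in the DSS group, with a median of -4.11 beside -0.0194 for all genes, and Ngp, a protein of neutrophil granules, had the smallest p (log2 fold change -7.89, SE 1.01, adjusted p = 0.000706 in edgeR's quasi-likelihood test). Their summed level was 142 to 333 CPM in the control group, 4830 to 29600 CPM in the DSS group and 1400 to 1870 CPM in the DSS + EA group.

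The number of Cxcr2 reads was also set against the sum of these markers. Per 1000 neutrophil marker counts there were 0.133, 0.676 and 1.07 Cxcr2 counts in the DSS mice and 3.34, 3.74 and 2.37 in the DSS + EA mice, and the ranges did not overlap. The value of DSS mouse 1 rests on 2 Cxcr2 counts, under the floor, and S100a8 and S100a9 gave most of the marker counts of DSS mice 2 and 3. Ly6g and Cd177, a pair of markers with many reads in control mice, made up between 93.0% and 95.9% of the marker counts in the control group and between 4.98% and 67.6% in the others. Without them, a choice made after their values were seen, the Cxcr2 ratio was 0.251, 0.714 and 1.13 in DSS mice and 5.48, 7.47 and 7.33 in DSS + EA mice. Csf3r gave no such split, with 0.0665, 0.184 and 1.42 counts per 1000 marker counts in DSS mice and 0.878, 0.267 and 1.52 in DSS + EA mice.

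**Figure D5:**
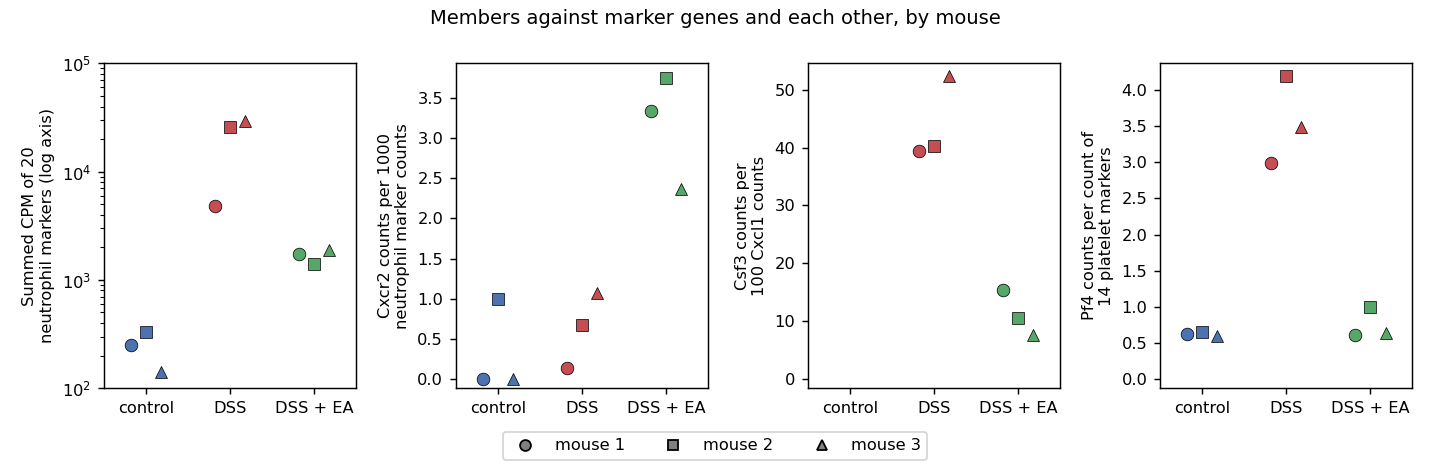
Per mouse, from left to right, the summed CPM of 20 neutrophil markers (log axis), Cxcr2 counts per 1000 neutrophil marker counts, Csf3 counts per 100 Cxcl1 counts (not given for controls, where both are at or under the floor) and Pf4 counts per count of 14 platelet markers. The Cxcr2 ratio is higher in all 3 DSS + EA mice (2.37 to 3.74) than in the DSS mice (0.133 to 1.07), and the Csf3 ratio is lower.

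Pf4 did not track the platelet list in size. Of 14 platelet and megakaryocyte markers 4 were tested. In DSS against control 1 was higher (F13a1, a clotting factor subunit also made by macrophages, log2 fold change 4.19, SE 0.807, adjusted p = 0.00293 in edgeR's quasi-likelihood test), and in DSS + EA against DSS all 4 were lower. The platelet integrin gene Itga2b had 7, 6 and 8 counts in control mice, 14, 20 and 23 in DSS mice and 6, 9 and 3 in DSS + EA mice. Summed levels were 64.8 to 90.1 CPM in the control group, 110 to 293 CPM in the DSS group and 47.6 to 65.7 CPM in the DSS + EA group, with 4, 2 and 6 of the 14 genes at 0 in every mouse of the group. Pf4 counts per platelet marker count were 0.596 to 0.651 in control mice, 2.99 to 4.19 in DSS mice and 0.616 to 0.994 in DSS + EA mice. Gng11, a G protein subunit gene with reads in every mouse, gave most of the control marker counts (244, 161 and 189 counts). In DSS mice Gng11 had 250, 372 and 278 counts and F13a1 had 54, 248 and 615, of 342, 715 and 938 marker counts. In DSS + EA mice Gng11 had 131, 125 and 110 of 172, 176 and 150. The sum thus describes mainly Gng11 and F13a1, and whether Pf4 followed the number of platelets was not tested.

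The cells that make these ligands also differed in their markers. Compared with the DSS group, 6 of 8 fibroblast markers, 5 of 6 endothelial markers and 9 of 13 macrophage markers were lower in the DSS + EA group in edgeR's quasi-likelihood test, with 1 macrophage marker higher. Summed levels in the DSS and DSS + EA groups were 4120 to 6860 and 1630 to 1720 CPM for fibroblasts, 102 to 130 and 39.3 to 41.9 CPM for endothelium, and 1090 to 1540 and 666 to 703 CPM for macrophages. The small proteoglycan gene Dcn (log2 fold change -2.05, SE 0.196, adjusted p = 0.000282 in the same test) and the adhesion gene Pecam1 (-1.55, SE 0.194, adjusted p = 0.00065) had the smallest p in the fibroblast and endothelial lists. Of 13 epithelium markers 4 were higher, and their sum was 2860 to 13500 CPM in DSS mice and 13100 to 20000 CPM in DSS + EA mice. The median log2 fold changes of these 4 lists lay between -1.69 and 1.22, compared with -4.69 for Cxcl1, -6.67 for Csf3 and -0.0194 for all genes. Their part in the ligand levels was not tested. Pancreatic acinar markers were higher for 13 of 13 genes. DSS + EA mouse 1, with the lowest sum of its group, still had 256 counts of Cela2a and 241 of Prss2, against 0 to 2 counts of either in the control and DSS mice. The part of pancreatic RNA in the member levels was not tested.

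The rest of the pathway was read from lists of other binders, chemokines, growth factors, cytokines and relay genes. The list of 7 other chemokine receptors and binders was not confined to those known to bind Cxcl1, Cxcl2, Cxcl3 or Cxcl5. Of these 7 genes 4 were tested, and all 4 were higher in DSS against control and lower in DSS + EA against DSS. They were the scavenger receptor Ackr3 (18, 12 and 14 counts in control, 68, 169 and 104 in DSS and 15, 15 and 13 in DSS + EA mice), the venule chemokine binder Ackr1, and the proteoglycans Sdc4 and Sdc1. Their log2 fold changes in DSS + EA against DSS lay between -2.67 and -1.03. The other chemokine receptors on the list had too few reads for the filter.

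Other CXC chemokines did not all follow the neutrophil-attracting ligands. Of 9 listed, 6 were tested. In the DSS + EA group 3 were lower than in the DSS group, the B cell attractant Cxcl13 (log2 fold change -3.60, SE 0.535, adjusted p = 0.00131 in edgeR's quasi-likelihood test), the stromal Cxcl12 and the membrane-bound Cxcl16. The interferon-induced Cxcl10 was higher. It had 4, 1 and 2 counts in control mice, 20, 67 and 95 in DSS mice and 158, 71 and 242 in DSS + EA mice, with a log2 fold change of 1.58 (SE 0.515, adjusted p = 0.0376 in edgeR's quasi-likelihood test), although DSS + EA mouse 2 lay within the DSS range of counts. Relative to the control group Cxcl9, another interferon-induced ligand, was also higher (log2 fold change 3.97, SE 0.872, adjusted p = 0.0374 in the same test), as were Cxcl10, Cxcl13 and Cxcl16.

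Among other colony-stimulating factors and receptors, 7 of 9 were tested. In DSS + EA against DSS 2 were lower and 1 higher. The shared receptor chain Csf2rb was lower (49, 183 and 214 counts in DSS mice and 31, 17 and 28 in DSS + EA mice), as was the macrophage receptor Csf1r, and the stem cell factor Kitl was higher (log2 fold change 0.753, SE 0.248, adjusted p = 0.039 in edgeR's quasi-likelihood test).

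Inducing cytokines and their receptors were divided. Of 16 genes listed, 15 were found by symbol (Il36g was not found under that symbol), and 12 were tested. Of the 12, 11 were higher and 1 lower in DSS against control, and 6 were lower and 1 higher in DSS + EA against DSS. Il6, an inflammatory cytokine, had 0, 1 and 1 counts in control mice, 93, 255 and 109 in DSS mice and 4, 7 and 8 in DSS + EA mice, with a log2 fold change of -4.22 in DSS + EA against DSS (SE 0.418, adjusted p = 0.000321 in edgeR's quasi-likelihood test). The IL-1 receptor gene Il1r1 and the IL-17 receptor gene Il17ra were lower as well (log2 fold changes -2.81 and -3.46). Il17rc, the partner chain of the IL-17 receptor, went the other way, with 4, 39 and 18 counts in DSS mice and 86, 50 and 77 in DSS + EA mice (log2 fold change 2.12, SE 0.446, adjusted p = 0.00615 in edgeR's quasi-likelihood test). The cytokine gene Il1b had 114, 695 and 864 counts in DSS mice and 436, 74 and 166 in DSS + EA mice, and like Cxcl2 it was highest among DSS + EA mice in mouse 1. It was higher than in control mice (log2 fold change 5.34, SE 0.926, adjusted p = 0.0137 in edgeR's quasi-likelihood test). In DSS + EA against DSS, Il1b was among 5 of the 12 that did not pass (log2 fold change -1.10, SE 0.685, adjusted p = 0.23 in the same test). Tnf was another (-0.533, SE 0.518, adjusted p = 0.444 in the same test). Il17a had 0 or 1 counts in every mouse and was not tested.

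Of 18 genes that relay signals from the IL-17, IL-1 and TNF receptors, 13 were higher in DSS against control and 11 were lower in DSS + EA against DSS, with a median of -1.06 in the latter beside -0.0194 for all genes. The kinase gene Map3k8 had 192, 593 and 473 counts in DSS mice and 20, 5 and 15 in DSS + EA mice (log2 fold change -4.70, SE 0.486, adjusted p = 0.000359 in edgeR's quasi-likelihood test). Nfkbia, an NF-kB target and inhibitor, fell from 2608, 3113 and 3534 counts to 683, 312 and 517 counts. Of 20 genes behind the receptors in neutrophils, 19 were tested, and 10 were lower and 1 higher in DSS + EA against DSS. The transcription factor Stat3, which G-CSF receptor signalling switches on, was among the lower ones (log2 fold change -1.52, SE 0.251, adjusted p = 0.00209 in edgeR's quasi-likelihood test). Socs3, its feedback inhibitor, was lower as well (-1.62, SE 0.42, adjusted p = 0.015 in the same test). In DSS + EA against control Socs3 was higher (2.76, SE 0.451, adjusted p = 0.0104 in the same test).

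Genes with the most similar pattern were sought by the root-mean-square difference of centred log2 CPM over the 9 libraries, as a description. For Cxcl1 the nearest was Mmp3, a matrix protease of stromal cells (difference 0.488), with 7, 8 and 4 counts in control mice, 1439, 4770 and 2597 in DSS mice and 164, 176 and 158 in DSS + EA mice. Serpina3m and Hp, both acute-phase genes, came next. For Cxcl5 the nearest was Cxcl13 (0.372), followed by Mt2 and Timp1. Csf3 had no gene as near, and Ngp (0.972), Stfa2 and Cxcl1 came first. Pf4 was nearest to the zinc transporter Slc39a14 (0.475), S100a4 and Il19. Cxcr2 was nearest to Il1f9 (0.379), an IL-1 family cytokine gene with 2, 45 and 96 counts in DSS mice and 27, 10 and 9 in DSS + EA mice, followed by Mrgpra2b and Fcgr4. DSS mouse 1 was the lowest DSS mouse in these Cxcr2 neighbours too, which came with picking them by likeness to Cxcr2 and is no further observation.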

How the data were processed

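The authors deposited raw read counts for each gene, as whole numbers. Their processing notes name the mm10 build, and the aligner, counting tool, annotation and use of strand are not given in the sources used here. Counts of all genes (27719) were tested in one fit over 9 libraries with R 4.3.3 and edgeR 4.0.16 (TMM, filterByExpr by group, prior count 0.125, quasi-likelihood F test, group as the only term), which kept 12566 genes. The code was tested on simulated data. Single ratios use summed counts with exact intervals. The p-values set the difference between groups against the spread between mice, with an estimate of that spread shared by the 3 groups. Leaving out a DSS mouse therefore also changes the p-values of DSS + EA against control. Alternatives were DESeq2 1.42.0 (the tool of the study's methods), other scalings, filters and call rules, a replicate block, and each mouse left out (for ratios of summed counts, chosen after seeing the data). Positions and transcript lengths came from GENCODE M21, promoters from RefSeq and primers from the study's supplement. The 9 members and all lists were chosen with earlier results of these data known. Genes named are the members, up to 4 per list with the smallest p in the comparison described, genes of the chromosome 5 cluster, and the 3 nearest in pattern to 5 members. Outside this rule, and chosen after their values were seen, are Ly6g, Cd177, Mthfd2l, Tnf, Il17a, and both Il1b and Socs3 in DSS + EA against DSS. Groups of 3 were not tested for single outlying mice.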

Additional observations from a re-analysis of the deposited data

How the results depend on the processing

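Limits came first from depth, because 8 of 9 members had under 4 counts in every control mouse, so fitted folds against control depend on the prior count. With a prior count of 2, the log2 fold changes of Cxcl2, Cxcl1, Cxcl5 and Csf3 in DSS + EA against control were 6.62, 4.28, 2.84 and 2.15, and those of Cxcl3 and Cxcr2 were 3.47 and 3.01. In DSS against control those of Cxcl2, Cxcl1, Csf3, Cxcl5, Cxcl3 and Cxcr2 were 9.81, 8.93, 8.48, 6.81, 6.60 and 4.60. Of 422 values of single members under the alternatives, 391 kept their direction and side of the threshold, 21 no longer passed, 9 newly passed and 1 reversed, Pf4 in DSS + EA against control (log2 fold change 0.0214 without DSS + EA mouse 3, and -0.574 to 0.0214 over the mice left out). With each mouse left out, members called numbered 7 to 9 in DSS against control, 5 to 9 in DSS + EA against DSS and 3 to 6 in DSS + EA against control, and genes called in the last numbered 110 to 772. Under the study's thresholds (log2 fold change beyond 2.5, unadjusted p under 0.01) genes called were 1280, 806 and 261, in that order, compared with 5144, 4457 and 457. In DSS + EA against control DESeq2 called 697 and a fit of only these groups 1149. DESeq2 called all 9 members in DSS against control. Per kilobase the mean share of Cxcl5 in the DSS group was 4.21%. The labels do not say whether the replicate numbers pair mice. Correlations of same-numbered mice were between -0.16 and 0.105, and those of differently numbered mice between -0.204 and 0.256. With so few mice these values cannot show whether mice were paired. With the number as a replicate block, members called were 7, 5 and 4 and genes called 4543, 3829 and 364, and Cxcl3 in DSS + EA against DSS no longer passed (log2 fold change -2.90, adjusted p = 0.0807).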
